A study of Mus musculus with 6 samples.

Results

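NRF2 and glutathione synthesis genes are 10 genes picked by symbol: Nfe2l2, which encodes the transcription factor NRF2, its inhibitor Keap1, and 8 genes known as NRF2 targets in cystine import, glutathione, thioredoxin and quinone or haem metabolism (Slc7a11, Gclc, Gclm, Gsr, Txnrd1, Srxn1, Nqo1 and Hmox1). All 10 were found, each under 1 identifier, among the 27502 genes of the deposited tables. They were measured by RNA sequencing in cultured vascular smooth muscle cells from mouse aorta, in 3 samples given siRNA against Ezh2 (siEzh2) and 3 control samples, all at 48 hours. Ezh2 encodes the methyltransferase of Polycomb repressive complex 2. The sources used here give neither the treatment of the controls nor the siRNA sequences, the strain or the age of the animals. They do not state whether samples of 1 group were separate cultures, so a p-value here measures a spread between samples that may be technical. Ezh2 itself had 3.41, 3.59 and 3.88 FPKM in controls against 1.20, 1.09 and 1.05 FPKM after siRNA, without overlap.

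As background, KEAP1 binds NRF2 in the cytoplasm and presents it to a CUL3 ubiquitin ligase for degradation. Oxidants and electrophiles modify KEAP1, NRF2 then accumulates, pairs with a small MAF protein and binds antioxidant response elements near its target genes. Control of NRF2 is therefore largely at the protein level, which RNA sequencing does not measure. In vascular smooth muscle the pathway is known for limiting oxidative damage, and glutathione, made from imported cystine, is a main substrate of that defence.

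Of the 10 genes, 9 were higher in siEzh2 samples and 1, Keap1, was lower, where 24.1% of all 11869 tested genes were called higher and 22.7% lower. The genes and lists were chosen with earlier results of these data known, so their counts beside these shares are a description, not an independent test. The rises ran from 1.27 times the control mean (Gsr) to 7.80 times (Slc7a11), and 7 of them were at least 1.71 times. A gene was called where its adjusted p was under 0.05 (limma on log2(FPKM + 1), Benjamini-Hochberg adjustment over all tested genes). FPKM is a fragment count scaled by gene length and library size. The length behind these values appears to be that of all annotated exons of a gene. Exons that the cells do not use would lower its FPKM, so levels are compared between genes only on this scale. In 58.1% of tested genes the 3 siEzh2 values all lay on 1 side of the 3 control values, so groups that do not overlap were common in these samples, and all 10 genes had such groups. The median log2 fold change of the 10 genes was 0.80, beside 0.01 over all tested genes. Slc7a11 reached the minimum level for testing (a mean of 1 FPKM in at least 1 group) only through its siEzh2 samples, so a difference was built into its passing. The other 9 genes, of which 8 were called higher, reached it in both groups. With no minimum level, where each of the 10 is tested whatever its level, 9 higher and 1 lower were again called.

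**Figure D1:**
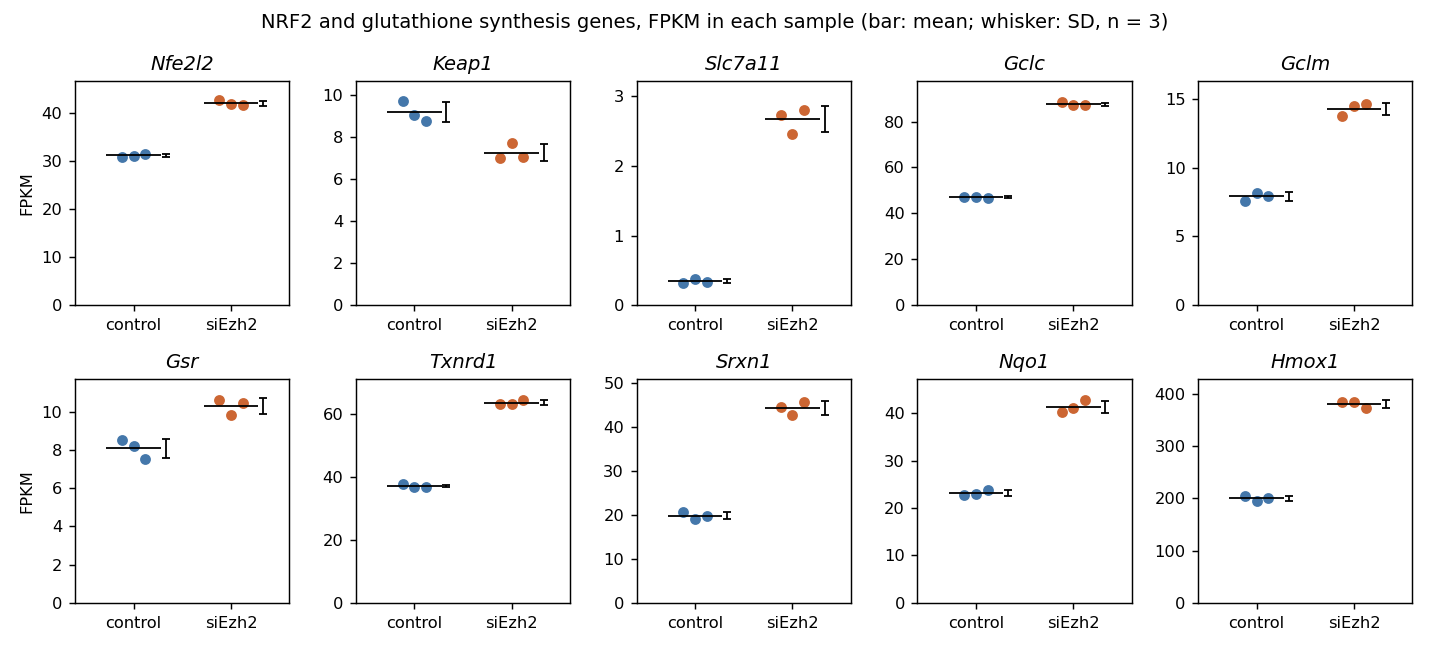
FPKM (vertical axes, each from 0) of the 10 genes in every sample, control in blue and siEzh2 in orange, with the group mean as a bar and the SD (n = 3) as a whisker. The siEzh2 points lie above the control points in 9 panels and below them for Keap1, and Slc7a11 goes from 0.342 to 2.67 FPKM.

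The labels and the makeup of the cells were checked on marker genes. The mean of Ezh2 was 3.63 ± 0.237 FPKM in controls and 1.11 ± 0.0781 FPKM after siRNA (SD, n = 3 each). Of the smooth muscle markers, Acta2 was abundant (699 ± 14.8 FPKM in control), Smtn was at 13.4 ± 0.252 FPKM, and Myh11, Cnn1, Myocd and Tagln lay under 2 FPKM in group mean. Exons of antisense genes cover 67.9% of the exon bases of Tagln and 16.3% of those of Smtn. No source used here says whether reads were counted by strand, so the low value of Tagln may not be its true level. Of the 5 smooth muscle markers that were tested, 4 were lower in siEzh2 samples and none higher. The background for this and the marker counts below is 24.1% of all tested genes higher and 22.7% lower. Among the 4, Myh11 (1.83 and 1.12 FPKM in group mean) and Myocd (1.57 and 1.13 FPKM) stood near the minimum level. The sum of the 6 smooth muscle markers was 701 to 730 FPKM in control and 533 to 570 FPKM in siEzh2 samples. Nearly all of this sum was Acta2 (683 to 711 and 519 to 555 FPKM), so it says little about the others. Of 6 macrophage and leukocyte markers 4 were tested, and 2 were higher (Cd68 and Cd14) and 2 lower (Csf1r and Lyz2). The sum of the 6 was 17.2 to 20.5 FPKM in control and 14.1 to 15.1 FPKM in siEzh2 samples. Csf1r (2.01 and 0.621 FPKM in group mean) reached the minimum level only through its control samples, so a difference was built into its passing. The calls of Cd68 and Cd14 were each lost without any 1 of 4 samples: control samples 2 and 3 for both, siEzh2 samples 2 and 3 for Cd68 (adjusted p = 0.0836 to 0.108), and siEzh2 samples 1 and 3 for Cd14 (adjusted p = 0.0882 to 0.104). Ptprc was near 0 with 4 reads in each group. Of 5 endothelial markers Kdr was tested and higher, and the sum of the 5 was 2.17 to 2.42 FPKM in control and 3.48 to 3.84 FPKM in siEzh2 samples. The other 4 did not reach the minimum level. Tek (0.332 and 0.857 FPKM in group mean, 2.58 times) and Vwf (0.417 and 0.932 FPKM, 2.24 times) had higher siEzh2 values without overlap, and Pecam1 (0.170 and 0.0789 FPKM) had lower ones without overlap. Cdh5 overlapped between the groups (0.223 and 0.196 FPKM). Mitochondrially encoded genes were lower in 8 of 13 cases and higher in none (sum 19081 to 19794 and 15861 to 16976 FPKM), beside 22.7% of all tested genes lower. They were listed as a possible mark of RNA quality, which was not tested. Their control means differed widely, from 2.64 FPKM (mt-Atp8, 30 reads in control and 16 in siEzh2 samples) to 7191 FPKM (mt-Co1). Of the 8 called lower, mt-Nd1, mt-Co1, mt-Nd4 and mt-Cytb lost their calls under quantile normalization. That step gives a gene that keeps its rank the same value in each sample. It therefore cannot show whether mt-Nd1 and mt-Cytb changed, whose log2 fold changes there were −1.19e-15 and −3.58e-15. Those of mt-Co1 (−0.306, adjusted p = 0.0921) and mt-Nd4 (−0.11, adjusted p = 0.102) were not fixed in this way. The call of mt-Nd4l was lost without any 1 sample except siEzh2 sample 3 (adjusted p = 0.0508 to 0.117), and that of mt-Nd2 without control sample 3 (adjusted p = 0.0501). The part of these differences in the changes of the 10 genes was not tested, and in bulk samples a change in the share of a cell type cannot be told apart from a change of RNA per cell.

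Stretches of DNA before the transcription start are shown for 4 of these genes. Each was higher in siEzh2 samples and held a match to a searched motif in a stretch free of annotated exons. The stretch of the fifth gene with a match, Nfe2l2, is not printed. Those shown are RefSeq sequences of build GRCm38.p6, the build that mm10 denotes, written 5′ to 3′ on the strand of the gene. Windows were held for 7 of the 10 genes (9 starts, of which 3 belong to Txnrd1). Gclc, Gsr and Hmox1 had no entry. Capitals mark the matches.
Slc7a11, chr3:50443615-50443863, minus strand: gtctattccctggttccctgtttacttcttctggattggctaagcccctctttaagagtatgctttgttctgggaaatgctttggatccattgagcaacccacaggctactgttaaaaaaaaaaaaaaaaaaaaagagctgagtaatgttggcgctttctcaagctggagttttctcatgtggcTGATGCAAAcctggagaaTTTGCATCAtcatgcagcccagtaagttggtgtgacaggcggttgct
Srxn1, chr2:152105274-152105515, plus strand: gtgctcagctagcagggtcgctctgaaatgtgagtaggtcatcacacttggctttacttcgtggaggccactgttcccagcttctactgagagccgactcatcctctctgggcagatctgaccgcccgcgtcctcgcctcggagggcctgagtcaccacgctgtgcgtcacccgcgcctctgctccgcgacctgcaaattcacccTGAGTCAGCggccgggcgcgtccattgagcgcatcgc
Txnrd1, chr10:82859009-82859178, plus strand: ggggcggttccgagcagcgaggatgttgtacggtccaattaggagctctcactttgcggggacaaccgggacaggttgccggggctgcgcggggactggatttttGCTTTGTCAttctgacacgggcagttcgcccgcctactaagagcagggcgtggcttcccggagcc
Gclm, chr3:122245307-122245556, plus strand: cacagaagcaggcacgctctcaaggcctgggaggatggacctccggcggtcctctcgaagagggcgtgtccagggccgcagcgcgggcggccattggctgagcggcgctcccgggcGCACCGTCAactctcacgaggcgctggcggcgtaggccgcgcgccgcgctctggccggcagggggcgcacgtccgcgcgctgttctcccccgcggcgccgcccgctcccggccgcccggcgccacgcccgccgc

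Matches were sought on both strands in the 250 bases before each start. The core of the antioxidant response element, TGACNNNGC, stood in 10.2% of the 32851 windows of all genes, and in those of Nfe2l2 (TGACTCCGC, 240 to 232 bases before the start), Gclm and 1 start of Txnrd1. In Gclm it read GCACCGTCA on the gene's strand, 134 to 126 bases before the start, and in Txnrd1 GCTTTGTCA, 92 to 84 bases before, both being matches on the opposite strand. A form with a centre like an AP-1 site, TGANTCAGC, which coincides with the first motif where its N is C, stood in 1.02% of windows and, among the 10 genes, before Srxn1 (TGAGTCAGC, 45 to 37 bases before the start). The amino acid response element TGATGCAAA, bound by ATF4 in amino acid shortage, stood in 0.225% of windows. Of the 10 genes Slc7a11 held it, in both orientations, 66 to 58 and 48 to 40 bases before the start. The windows of Keap1 and Nqo1 held none of these 3 motifs. The motifs were chosen after the windows had been read, and 3 other forms were tried. A wider core, TGANNNNGC, stood in 35.2% of all windows and in those of 6 of the 7 genes, Nqo1 being the exception. The centre TGANTCA alone stood in 6.75% of windows and before Srxn1, and the same centre followed by any 2 bases and GC stood in 0.84% and before none of the 7. A match is a description of the sequence only.

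The factor and its inhibitor moved in opposite directions. Nfe2l2 (ENSMUSG00000015839, chromosome 2 from 75675513 to 75704641, minus strand, mm10) stood at 31.0, 31.1 and 31.6 FPKM in controls against 42.7, 42.0 and 41.7 FPKM after Ezh2 siRNA. The lowest siEzh2 value stood well above the highest control value. The means were 31.2 ± 0.315 and 42.1 ± 0.526 FPKM (SD, n = 3 each), 1.35 times, and the log2 fold change was 0.42 (SE 0.0316, adjusted p = 0.000221). This is 1 of the smaller rises of the 9: 7.38% of all tested genes rose at least as much.

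Keap1 (ENSMUSG00000003308, chromosome 9 from 21229730 to 21239361, minus strand), the adaptor that holds NRF2 for degradation, had 9.73, 9.05 and 8.78 FPKM in control and 7.02, 7.73 and 7.04 FPKM in siEzh2 samples. It was the 1 gene of the 10 that was lower, and its groups did not overlap although siEzh2 sample 2 came nearest to the controls. Its mean fell from 9.19 ± 0.490 to 7.26 ± 0.402 FPKM (SD, n = 3 each), with a log2 fold change of −0.30 (SE 0.0540, adjusted p = 0.00535). A share of 10.9% of its exon bases lies in exons of an antisense gene, Gm16754, and no source used here says whether reads were counted by strand. Within each sample the FPKM of Nfe2l2 was 3.19, 3.44 and 3.60 times that of Keap1 in control and 6.08, 5.44 and 5.92 times in siEzh2 samples.

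Of the 10 genes, Slc7a11 showed the largest change. Slc7a11 (ENSMUSG00000027737, chromosome 3 from 49892526 to 50443614, minus strand) encodes xCT, the subunit that exchanges cystine for glutamate. It was barely present in control samples, at 0.322, 0.375 and 0.329 FPKM, and had 2.74, 2.46 and 2.81 FPKM in siEzh2 samples. Every siEzh2 value was several times the highest control value. In reads recovered from the FPKM steps, Slc7a11 had a total of 265 in controls and 1896 after Ezh2 siRNA, out of 16080005 to 18753124 reads per sample. The means were 0.342 ± 0.0287 and 2.67 ± 0.184 FPKM (SD, n = 3 each). On log2(FPKM + 1), which understates the change of a gene this low, the log2 fold change was 1.45 (SE 0.0473, adjusted p = 3.57e-05). With a pseudocount of 0.1 it was 2.65, and by limma-voom on recovered reads 2.96.

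Slc3a2, the heavy chain that carries xCT to the cell surface and serves other amino acid transporters too, rose less than Slc7a11, with 95% confidence intervals of the log2 fold change of 0.19 to 0.34 and 1.34 to 1.56. It had 37.7, 37.4 and 38.4 FPKM in control and 45.2, 45.7 and 46.2 FPKM in siEzh2 samples, a log2 fold change of 0.27 (SE 0.0320, adjusted p = 0.00119). In control samples Slc3a2 stood at 99.7 to 117 times the FPKM of Slc7a11, and in siEzh2 samples at 16.4 to 18.6 times. Slc7a11 thus remained the lowest of the 10 genes by FPKM in both groups. With 13922 exon bases it had 1896 reads in siEzh2 samples, beside 1742 of Keap1 and 1443 of Gsr.

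Both subunits of glutamate-cysteine ligase, the enzyme of the rate-limiting step of glutathione synthesis, rose, by 1.86 and 1.81 times. Gclc, the catalytic subunit (ENSMUSG00000032350, chromosome 9 from 77754535 to 77794485, plus strand), had 47.1, 47.4 and 46.8 FPKM in control and 88.4, 87.3 and 87.2 FPKM in siEzh2 samples. Replicates differed by a small part of the distance between the groups. Its means were 47.1 ± 0.284 and 87.6 ± 0.666 FPKM (SD, n = 3 each), with a log2 fold change of 0.88 (SE 0.0305, adjusted p = 3.57e-05).

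Gclm, the modifier subunit (ENSMUSG00000028124, chromosome 3 from 122245557 to 122270732, plus strand), had 7.55, 8.18 and 7.96 FPKM in control and 13.8, 14.4 and 14.6 FPKM in siEzh2 samples, without overlap. Its means were 7.90 ± 0.318 and 14.3 ± 0.444 FPKM (SD, n = 3 each), 1.81 times, and its log2 fold change was 0.78 (SE 0.0429, adjusted p = 9.25e-05). Exons of the antisense gene Gm17494 cover 4.71% of its exon bases and those of Gm6061, on the same strand, 3.88%. The ratio of Gclc to Gclm FPKM averaged 5.97 ± 0.236 in controls and 6.14 ± 0.241 after siRNA (SD, n = 3 each). The single ratios, 6.24, 5.79 and 5.88 against 6.42, 6.04 and 5.97, overlapped between the groups. On the FPKM scale the catalytic subunit's transcript stood near 6 times that of the modifier in both.

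**Figure D2:**
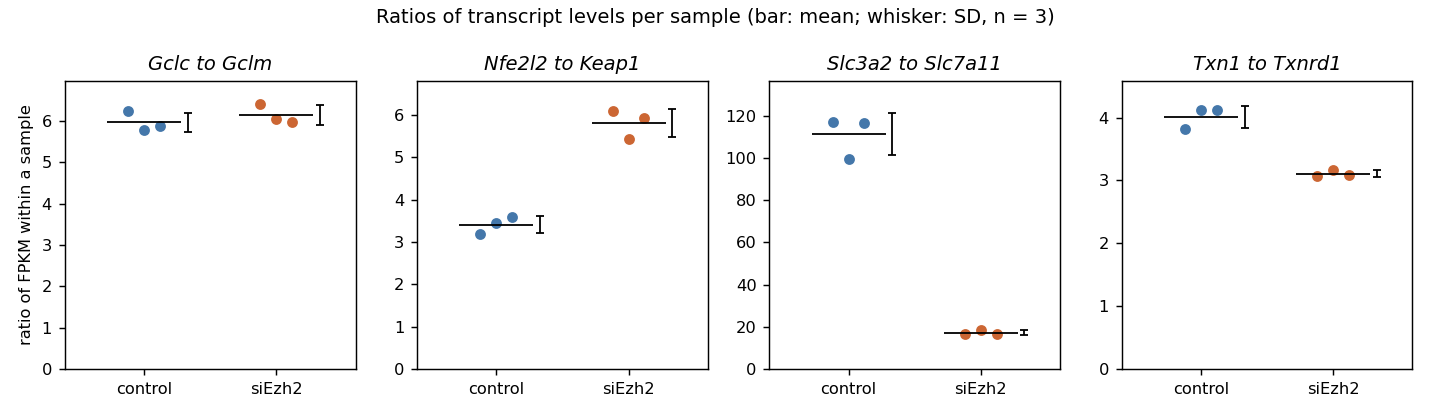
Ratio of the FPKM of 2 genes within each sample (vertical axes, each from 0), with the group mean as a bar and the SD (n = 3) as a whisker. Gclc to Gclm overlaps between groups near 6, Nfe2l2 to Keap1 is higher in siEzh2 samples (5.81 against 3.41), and Slc3a2 to Slc7a11 (17.2 against 111) and Txn1 to Txnrd1 (3.11 against 4.01) are lower.

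The enzyme that recycles glutathione rose less than the ligase subunits. Gsr, glutathione reductase (ENSMUSG00000031584, chromosome 8 from 33652523 to 33698163, plus strand), had 8.49, 8.20 and 7.53 FPKM in control and 10.6, 9.80 and 10.4 FPKM in siEzh2 samples. The gap between the highest control and the lowest siEzh2 sample was of the order of the range within a group. Its log2 fold change was 0.31 (SE 0.0534, 95% confidence interval 0.18 to 0.44, adjusted p = 0.00442), below the intervals of Gclc (0.81 to 0.96) and Gclm (0.68 to 0.88). Among all tested genes, 12.7% rose at least as much as Gsr.

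The thioredoxin genes Txnrd1 and Srxn1 rose by larger factors than Gsr. Txnrd1, cytosolic thioredoxin reductase (ENSMUSG00000020250, chromosome 10 from 82833951 to 82897712, plus strand), had 37.7, 36.9 and 37.0 FPKM in control and 63.3, 63.3 and 64.6 FPKM in siEzh2 samples, a log2 fold change of 0.76 (SE 0.0317, adjusted p = 4.22e-05). Its values are those of all transcripts of the gene, so the 3 starts cannot be told apart. Srxn1, sulfiredoxin, which repairs over-oxidized peroxiredoxins (ENSMUSG00000032802, chromosome 2 from 152105516 to 152111376, plus strand), had 20.5, 19.0 and 19.8 FPKM in control and 44.4, 42.7 and 45.7 FPKM in siEzh2 samples. The lowest siEzh2 value was far above the highest control value. The means were 19.8 ± 0.788 and 44.3 ± 1.52 FPKM (SD, n = 3 each), 2.24 times, with a log2 fold change of 1.12 (SE 0.0451, adjusted p = 4.02e-05), after Slc7a11 the largest rise of the 10.

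Nqo1 and Hmox1, enzymes of quinone and haem metabolism, rose by similar factors from very different levels. Nqo1, a quinone reductase (ENSMUSG00000003849, chromosome 8 from 107388225 to 107403206, minus strand), had 22.7, 22.9 and 23.8 FPKM in control and 40.3, 41.0 and 42.8 FPKM in siEzh2 samples, a log2 fold change of 0.81 (SE 0.0391, adjusted p = 6.20e-05). Hmox1, haem oxygenase 1 (ENSMUSG00000005413, chromosome 8 from 75093621 to 75100589, plus strand), had 205, 194 and 202 FPKM in control and 386, 384 and 373 FPKM in siEzh2 samples. It was the most abundant of the 10 genes in each sample, and its groups were far apart. Its mean was 1.90 times higher, with a log2 fold change of 0.92 (SE 0.0369, adjusted p = 4.02e-05).

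**Figure D3:**
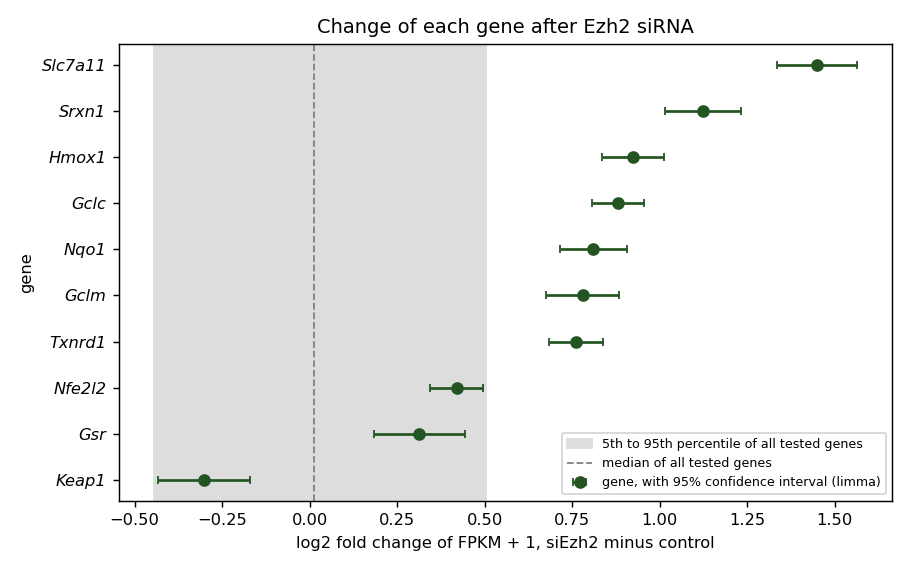
Log2 fold change of FPKM + 1, siEzh2 minus control (horizontal axis), of each of the 10 genes with its 95% confidence interval, beside the median (0.01) and the range from the 5th to the 95th percentile (−0.44 to 0.50) of all tested genes. Nfe2l2, Gsr and Keap1 lie inside that range, and the other 7 genes lie above it.

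The order of the FPKM levels was Hmox1, Gclc, Txnrd1, Nfe2l2, Nqo1, Srxn1, Keap1, Gsr, Gclm and Slc7a11 in control samples. In this order the ranges over samples of Gsr (7.53 to 8.49 FPKM) and Gclm (7.55 to 8.18 FPKM) overlapped, and no other neighbours did. In siEzh2 samples Srxn1 and Gclm stood further up and Keap1 further down: Hmox1, Gclc, Txnrd1, Srxn1, Nfe2l2, Nqo1, Gclm, Gsr, Keap1 and Slc7a11. Srxn1 and Nfe2l2, and Nfe2l2 and Nqo1, overlapped there. Their ranges were 42.7 to 45.7, 41.7 to 42.7 and 40.3 to 42.8 FPKM. Summed over the 10 genes, the level was 377 to 390 FPKM in control and 690 to 699 FPKM in siEzh2 samples, of which Hmox1 made up the larger part.

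Other genes of the pathway, 60 in 5 lists, went both ways and mostly by less. Of the 53 that reached the minimum level, 23 were higher, 9 lower and 21 did not pass the test, with a median log2 fold change of 0.11. The shares of all tested genes given above, 24.1% higher and 22.7% lower, are the background for these counts. The 7 that were not tested were Bach2, Nfe2l3, Cbs, Ggt1, Ggt5, Gpx2 and Gsta3. The examples given here are the 4 called genes with the smallest p in each list. Other genes were added after their values were seen: Btrc, Gss, Ggt7, Ggct, Tkt, Blvra and Cbr1 to name all genes of a small count, Cbr3 and Blvrb for the loss of their calls, and Cul3, Bach1, Me1 and Ftl1 for their roles.

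Among 10 tested partners and regulators of NRF2, 3 were higher and 2 lower, shares near those of all tested genes. Sqstm1 encodes p62, an adaptor that sequesters KEAP1, and rose from 155.8 ± 0.461 to 201 ± 7.28 FPKM (mean ± SD, n = 3 each, adjusted p = 0.00073, log2 fold change 0.36). Exons of the antisense gene Mrnip cover 17.3% of its exon bases. Maff, a small MAF partner, was higher by 0.21 (adjusted p = 0.0129) and Mafk, another, by 0.12 (adjusted p = 0.0388). The call of Mafk was lost without any 1 of the 6 samples (adjusted p = 0.0627 to 0.113). Rbx1, the RING subunit of the CUL3 ligase, fell from 17.2 ± 0.293 to 13.8 ± 0.482 FPKM (mean ± SD, n = 3 each, adjusted p = 0.00139, log2 fold change −0.31), and Btrc, a substrate receptor of another ligase for NRF2, had a log2 fold change of −0.13 (adjusted p = 0.0389). The call of Btrc was lost without any 1 sample except control sample 3 (adjusted p = 0.0555 to 0.117). Cul3 itself had 30.8 ± 0.732 and 28.7 ± 1.19 FPKM (mean ± SD, n = 3 each, adjusted p = 0.106). Bach1, a repressor that competes with NRF2 at its elements, had 7.09 ± 0.618 and 7.74 ± 0.334 FPKM (mean ± SD, n = 3 each, adjusted p = 0.197). The values of Cul3 and Bach1, given for their roles, did not pass the test, although those of Cul3 did not overlap between the groups.

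In the list of cystine supply and glutathione turnover 5 of 11 tested genes were higher and 2 lower. Beside Slc3a2 these were Cth, which makes cysteine from cystathionine (log2 fold change 0.20, adjusted p = 0.00697), Gss, glutathione synthetase (0.16), Ggt7 of the gamma-glutamyltransferase family (0.28), and Ggct of the gamma-glutamyl cycle (0.24). The call of Ggct was lost without siEzh2 sample 1 or 3 (adjusted p = 0.058 and 0.0589). Cth rests on 230 and 264 reads over the 3 samples of each group, and its call was lost by limma-voom on recovered reads (adjusted p = 0.0972). Gss, which completes the synthesis of glutathione, had a 95% confidence interval of 0.07 to 0.25, below those of Gclc and Gclm, and 15.4% of its exon bases are shared with antisense genes. Glrx, a glutaredoxin that uses glutathione, fell from 5.87 ± 0.119 to 4.03 ± 0.411 FPKM (mean ± SD, n = 3 each, adjusted p = 0.00192, log2 fold change −0.45). Oplah, which turns 5-oxoproline back into glutamate, fell by 0.31 on the log2 scale (adjusted p = 0.00262). Exons of the antisense genes Smpd5 and Exosc4 cover 11.7% of its exon bases.

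Of 8 tested thioredoxin and peroxiredoxin partners 2 were higher and 2 lower, shares near the 24.1% and 22.7% of all tested genes. Txn1, the thioredoxin that Txnrd1 reduces, rose from 149 ± 4.79 to 198 ± 3.62 FPKM (mean ± SD, n = 3 each, adjusted p = 0.000516, log2 fold change 0.41). Prdx1, a peroxiredoxin and a substrate of sulfiredoxin, rose from 99.2 ± 2.51 to 140.4 ± 2.27 FPKM (mean ± SD, n = 3 each, adjusted p = 0.000191, log2 fold change 0.50). Txnip, which binds and inhibits thioredoxin, fell from 32.2 ± 1.09 to 23.1 ± 1.16 FPKM (mean ± SD, n = 3 each, adjusted p = 0.000738, log2 fold change −0.46), with 19.4% of its exon bases in the antisense gene Gm15441. Sesn2, a stress-induced sestrin, had a log2 fold change of −0.16 (adjusted p = 0.0313). Leaving out any 1 of control samples 1 and 2 and siEzh2 samples 2 and 3 ended this call (adjusted p = 0.07 to 0.0895).

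Genes of NADPH supply were called higher in 5 of 6 cases and lower in none. Taldo1, transaldolase, had the largest change of the 6 (4.16 times, log2 fold change 1.99), ahead of Pgd, 6-phosphogluconate dehydrogenase (0.41), G6pdx, glucose-6-phosphate dehydrogenase (0.34, with 13.6% of its exon bases in the antisense gene Ikbkg), Idh1, isocitrate dehydrogenase (0.17), and Tkt, transketolase (0.15). Me1, malic enzyme, had 36.2 ± 0.413 and 39.1 ± 1.61 FPKM (mean ± SD, n = 3 each, adjusted p = 0.0726). Tkt kept no call when any 1 of control samples 1 and 3 and siEzh2 samples 2 and 3 was left out (adjusted p = 0.0512 to 0.0719).

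Of 18 other tested genes known as NRF2 targets, 8 were higher and 3 lower. Ugdh, which makes UDP-glucuronate, rose from 41.6 ± 0.593 to 75.3 ± 2.78 FPKM (mean ± SD, n = 3 each, adjusted p = 5.80e-05, log2 fold change 0.84), about as much as Gclm and Nqo1. Akr1b8, an aldo-keto reductase, rose by 0.48 on the log2 scale, and Fth1, the ferritin heavy chain, from 1078 ± 24.9 to 1402 ± 20.5 FPKM (SD, n = 3 each). Ephx1, an epoxide hydrolase, fell from 363 ± 0.793 to 274 ± 11.4 FPKM (mean ± SD, n = 3 each, adjusted p = 0.000615, log2 fold change −0.41). The other 2 that were lower were Blvra, biliverdin reductase, which acts after haem oxygenase (−0.31), and Cbr1, a carbonyl reductase (−0.22). The call of Blvra was lost without control sample 2 or 3 (adjusted p = 0.0516 and 0.0525). Of the 8 that were higher, 2 lost their calls when single samples were left out. Cbr3, a carbonyl reductase (log2 fold change 0.12), lost its call without any 1 of the 6 samples (adjusted p = 0.0527 to 0.0837), and Blvrb, another biliverdin reductase (0.21), without any 1 except siEzh2 sample 1 (adjusted p = 0.0694 to 0.118). Ftl1, the ferritin light chain, had 263 ± 23.4 and 265 ± 19.3 FPKM (mean ± SD, n = 3 each, adjusted p = 0.915), and 26.5% of its exon bases are shared with an antisense gene.

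**Figure D4:**
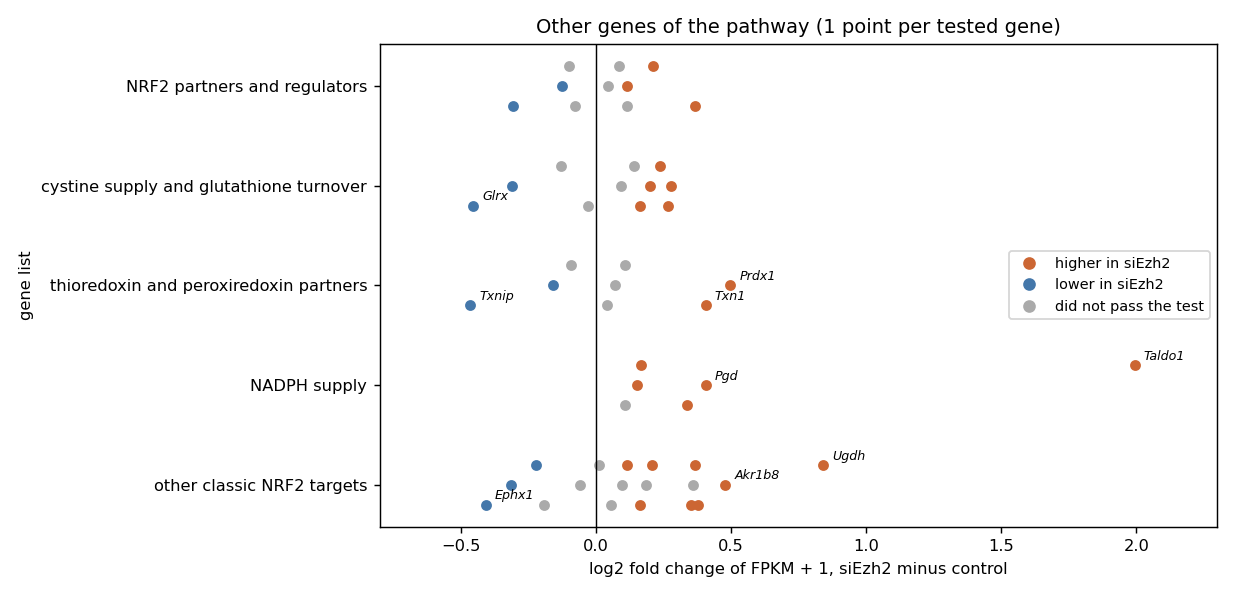
Log2 fold change of FPKM + 1, siEzh2 minus control (horizontal axis), of the 53 tested genes of the 5 other lists, 1 point per gene, coloured by call; names stand beside called genes with large changes. Points fall on both sides of 0 in each list but NADPH supply, and Taldo1 and Ugdh lie furthest to the right.

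By Euclidean distance over the 6 samples, on log2(FPKM + 1) minus the control mean, the tested genes nearest to Slc7a11 were Gxylt1 (distance 0.186), Ifit1 (0.188) and Gm33228 (0.192). Gxylt1, a xylosyltransferase, had 7.83 ± 0.228 and 21.9 ± 0.599 FPKM, and Ifit1, an interferon-induced gene, 3.69 ± 0.188 and 12.4 ± 0.697 FPKM (SD, n = 3 each). Gm33228 had 2.25 ± 0.0499 and 8.30 ± 0.437 FPKM (SD, n = 3 each). Their FPKM ratios, 2.79, 3.35 and 3.70, were lower than the 7.80 of Slc7a11, since the scale compresses the change of a gene near 0.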

How the data were processed

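The deposited values are FPKM per gene, as named per the file headers, in 1 table for each of 6 samples. Trimmomatic, HISAT2, HTSeq, Cufflinks and mm10 are named in the submitters' processing notes, with no versions or roles, and libraries were stranded mRNA per the labels' protocols. Genes whose mean reached 1 FPKM in either group entered limma 3.58.1 (R 4.3.3, no covariate, trend and robust off) on log2(FPKM + 1), with Benjamini-Hochberg adjustment over all 11869 tested genes. SDs and ratios are of FPKM. Tables and figures were made with Python 3.11.15, pandas 2.3.3, numpy 2.4.6 and matplotlib 3.10.9. GENCODE M21 held 99.8% of the gene identifiers and gave coordinates, exon lengths and overlaps. FPKM times exon length moved in equal steps, which gave reads (98.4% to 98.5% of values under 1000 reads were whole within 0.02). On these reads no 2 samples looked like copies: the lowest chi-square per degree of freedom of any pair was 2.09. The fit was also run on simulated counts with known changes in far fewer genes than were called here. That run therefore does not give the error rate of these calls. The genes and lists were chosen with earlier results of these data known. The rule for named genes gave the 10 members, the 4 called genes with the smallest p in each other list, Ezh2 and the 3 genes nearest in pattern to the member with the largest called change. Marker genes and further pathway genes are named beyond this rule, the latter chosen after their values were seen and listed with the results.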

Additional observations from a re-analysis of the deposited data

How the results depend on the processing

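Over 13 alternatives (a pseudocount of 0.1, no minimum level, a mean of at least 5 FPKM, quantile normalization, a replicate block, limma with trend and robust on, limma-voom on recovered reads, and each of the 6 samples left out) Keap1 stayed lower and the other members higher, all with an adjusted p under 0.05. The exception is Slc7a11, which is not tested at a mean of at least 5 FPKM, leaving 8 members higher there. Without any 1 sample, 9 members were higher and 1 lower. The log2 fold change ranged from 1.37 to 2.96 for Slc7a11, from 0.27 to 0.35 for Gsr and from −0.34 to −0.26 for Keap1, whose highest adjusted p was 0.0204. Among the other pathway genes 19 to 27 were higher and 6 to 11 lower. Calls were gained as well as lost. Of the genes given for their roles, Cul3 was called lower by limma-voom, and Bach1 and Ftl1 gained no call. Me1 was called higher at a mean of at least 5 FPKM, with trend and robust on, by limma-voom and without siEzh2 sample 3. With the replicate block, 9 members were higher and 1 lower, 20 and 8 other pathway genes, and 2564 and 2385 of all tested genes, beside 2866 and 2695 without it. Deviations from the group mean correlated by 0.0243, 0.0695 and 0.0405 between samples of the same number. These samples share a number only, though each correlated best with its own number. With the block, 5 of the called other pathway genes lost their calls: Mafk (adjusted p = 0.092), Btrc (0.081), Tkt (0.0503), Cbr3 (0.0631) and Blvrb (0.054); so did the marker Cd68 (0.0838). Under the other alternatives that kept all samples and tested the gene, other pathway genes that lost calls were Btrc (no minimum level, and trend and robust on), Sesn2 (no minimum level), Blvrb (a pseudocount of 0.1, no minimum level, and quantile normalization), and Cth and Cbr3 (limma-voom). Among the markers, Cd68 lost its call with no minimum level, quantile normalization and limma-voom, and Cd14 with the first 2 of these. The call of mt-Nd4l was lost with a pseudocount of 0.1, no minimum level and limma-voom. Losses of mt-Nd1, mt-Co1, mt-Nd4 and mt-Cytb under quantile normalization are given with the markers. For Slc7a11, with 265 reads in the control samples, depth limits the precision of the control level.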
